A study of Mus musculus with 12 samples.

Results

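Marginal zone B cells whose Bcl6 alleles were both floxed (flox/flox) were compared with marginal zone B cells that carried 1 floxed and 1 normal allele (+/flox). The comparison was chosen by the cell type and genotype in the sample titles, and it uses 4 of the 12 arrays of the study, 2 per genotype. Its difference, flox/flox minus +/flox, is the step from 1 remaining intact Bcl6 allele to none. Marginal zone (MZ) B cells sit at the border of the splenic white pulp, where they meet blood-borne antigen and respond fast. They depend on NOTCH2 signalling and carry high CD21 (encoded by Cr2) and CD1d and little CD23 (encoded by Fcer2a). BCL6 is a zinc finger repressor that recruits SMRT, NCOR and BCOR and is best known for setting up germinal centres, where it holds down genes of the cell cycle brake, DNA damage response, migration and plasma cell fate.

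The study measured total RNA of sorted splenic B cells from female C57BL/6 mice aged 10 weeks on Affymetrix arrays, in 6 groups of 2. The groups were MZ and follicular (FO) cells, each from mb1-cre(+/-)Bcl6(+/+), mb1-cre(+/-)Bcl6(+/flox) and mb1-cre(+/-)Bcl6(flox/flox) mice. Every mouse, the wild-type controls included, therefore carried 1 copy of mb1-cre, which expresses Cre recombinase from the early B lineage on, and no group lacked Cre. MZ cells were the B220+AA4.1-CD21highCD23low fraction left after magnetic depletion of cells with T, myeloid, erythroid, plasma and activated cell markers. The labels give no agent or challenge. Whether both arrays of a group stem from different mice is not stated, so the p-values rest on the spread between samples, part or all of which may be technical.

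All values are log2 expression values, and a difference of 1 is a 2-fold change. Values near 2.22, the lowest value on every MZ array, mean a signal at background. Of 18194 genes on the array, 9307 reached a log2 value of 4 on at least 2 arrays and were tested with limma, in a model over all 12 arrays. A gene was called past an adjusted p of 0.05. In RNA of bulk sorted cells, fewer cells of a type and less RNA per cell cannot be told apart.

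The 4 arrays carried the profile of the sort. Cr2 was 14.72 ± 0.18 (SD, n = 2) in +/flox and 14.34 ± 0.41 in flox/flox MZ cells, and Cd1d1, which encodes CD1d, was 14.32 ± 0.07 and 14.24 ± 0.47. Fcer2a was 9.17 ± 0.46 and 9.10 ± 0.14 in MZ cells, against 13.63 to 14.25 on the 6 FO arrays. The +/flox arrays correlated at 0.984 over the genes tested, and the flox/flox arrays at 0.975. Flox/flox array 2 correlated at 0.991 with +/flox array 2, closer than with its own group. The T cell genes Cd3e, Cd3g, Cd3d and Cd4 were under 4 on the 4 arrays. Of the neutrophil genes, S100a8 and S100a9 stood out on flox/flox array 1, at 7.63 and 7.04, against 2.23 to 2.50 on the other 3 arrays. Camp was 3.77 and Ngp 3.97 on that array, against 2.22 and 2.29 on the other 3, and Ltf, Mpo, Elane, Csf3r and Mmp8 were under 4 on all 4 arrays. Of the wild-type arrays, MZ array 1 stood apart: its Gapdh control probes read 6.90 higher at the 3′ than at the 5′ end, while the other 11 arrays of the study gave -0.20 to 0.63. Its actin controls gave 2.19, against 0.64 to 1.07, and it correlated with wild-type array 2 at 0.944. The part of this low 5′ signal in the wild-type values given below was not tested. The flox/flox minus +/flox difference does not contain this array, which enters its test through the shared spread, the filter and the choice of probe set. With both wild-type MZ arrays left out of the fit 4 genes passed, the 3 calls and Tmed6.

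Bcl6 itself was read by 2 probe sets. The one with signal gave 9.44 and 9.38 on the +/flox arrays and 9.95 and 10.37 on the flox/flox arrays, after 8.29 and 8.81 in wild-type MZ cells. The value was thus not lower where both alleles were floxed, and the arrays of the genotypes did not overlap. The difference was 0.75 ± 0.23 (SE; limma adjusted p = 0.822). The other probe set was at the minimum on all 6 MZ arrays. On the FO arrays it gave 4.94 and 5.61 in wild-type, 4.93 and 4.86 in +/flox, and 2.36 and 2.48 in flox/flox cells. It was thus near the minimum in FO cells where both alleles were floxed. The deleted exons, and the exons these probe sets read, are not stated in the labels. The genotypes of the MZ arrays are therefore taken from the labels alone.

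Genes beside Bcl6 on chromosome 16 were examined as well, since floxed and normal chromosomes can differ around the targeted gene. None of the nearest 10 genes tested on each side passed the test. Of the 20, 2 had an unadjusted limma p under 0.05, against 5.44% of all genes tested. The 20 had a median difference of 0.06, and they ranged from -0.32 for St6gal1, a sialyltransferase, to 1.19 for Fam43a. Lpp, a focal adhesion protein gene close to Bcl6, had a difference of 0.93 and Rfc4, a replication clamp loader subunit, had 0.60.

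The step from +/flox to flox/flox moved 3 genes in MZ cells past the threshold, 1 up and 2 down. Sh3bgrl2 rose, and Slc41a2 and Tspan15 fell. They are 0.0322% of the genes tested, 0.0107% higher and 0.0215% lower. An unadjusted limma p under 0.05 was found for 506 genes (5.44%), 257 higher (2.76%) and 249 lower (2.68%), against 465 that uniform p-values would give. Without +/flox array 2, flox/flox array 1 or flox/flox array 2 the count fell to 1, Sh3bgrl2, and a model of the 6 MZ arrays alone called 0, with 341 at an unadjusted limma p under 0.05. The median difference over all genes tested was 0.0007, with 50.3% of the values above 0 and 49.3% below, which is the background for the gene lists described later.

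**Figure D1:**
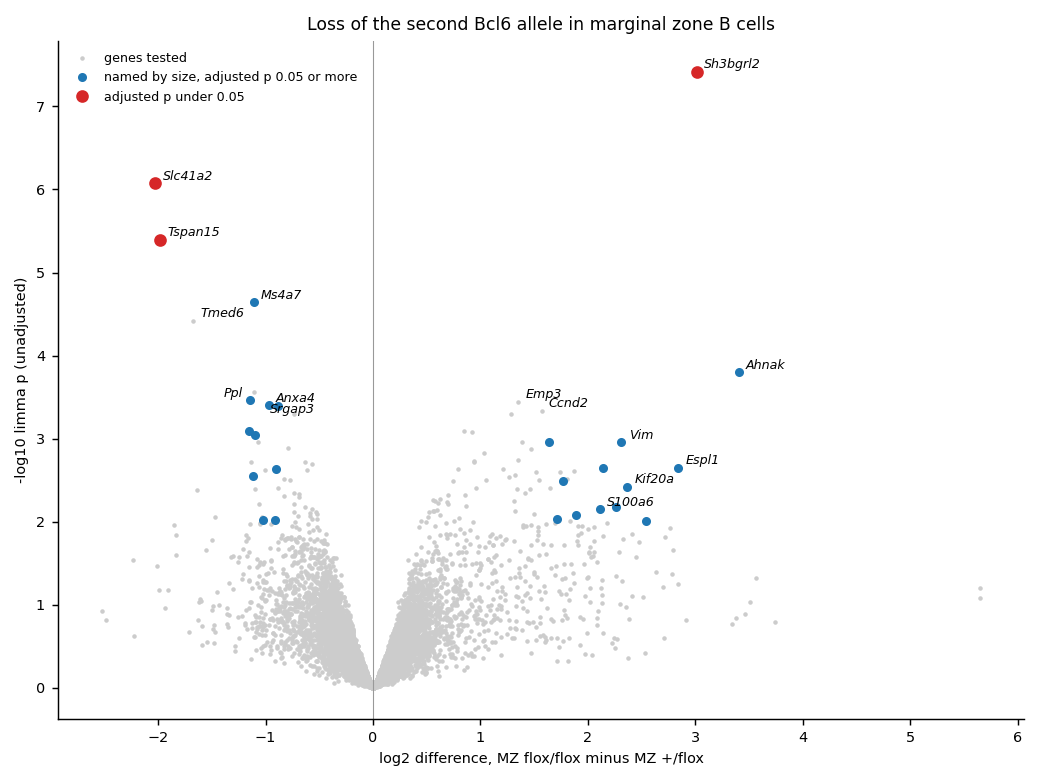
Log2 difference of each of the 9307 genes tested, MZ flox/flox minus MZ +/flox (horizontal), against -log10 of the unadjusted limma p (vertical). Sh3bgrl2 stands alone at the upper right at 3.02, Slc41a2 (-2.03) and Tspan15 (-1.98) at the upper left; the blue genes were named by size and did not pass the test.

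Sh3bgrl2 encodes a small SH3-domain-binding protein of the thioredoxin-fold family. It was at background in wild-type MZ cells (2.58 and 2.52) and in +/flox cells (2.52 and 2.46), and it reached 5.64 and 5.37 in flox/flox cells. Both flox/flox arrays were far above the other 4 MZ arrays, and the +/flox arrays were at the level of the wild-type ones. The difference was 3.02 ± 0.16 (SE; limma adjusted p = 3.54e-04), or 8.08-fold with a 95% interval of 6.26 to 10.4. Since the +/flox arrays lie near the minimum, this fold would change with another background correction. The gene passed the filter only through flox/flox arrays, as the FO wild-type and +/flox arrays were low too (2.54 to 2.77). Such values lower the spread the model uses and can make its p too small. The second probe set of Sh3bgrl2 was near the minimum, at 2.71 in +/flox and 2.96 in flox/flox cells on average, and the mean over both probe sets differed by 1.63. The call held without any single array of the 12, with limma adjusted p-values from 0.00155 to 0.0126. In a model of the 6 MZ arrays alone its adjusted p was 0.0946.

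Slc41a2, a magnesium transporter gene, had its highest values with both alleles intact. Wild-type MZ arrays gave 8.20 and 8.18, +/flox arrays 7.56 and 7.81, and flox/flox arrays 5.68 and 5.63. The 3 genotypes did not overlap, and the second step was the larger, at -2.03 ± 0.16 (SE; limma adjusted p = 0.00391), a 4.08-fold lower level (95% interval 3.17 to 5.24). Its call was lost without +/flox array 2 (adjusted p = 0.0756), flox/flox array 1 (0.0763) or flox/flox array 2 (0.0504), and in the model of the 6 MZ arrays (0.281).

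Tspan15, a tetraspanin that partners the protease ADAM10, was lower in flox/flox cells alone. Its values were 7.37 and 7.73 in wild-type, 7.27 and 7.56 in +/flox and 5.43 and 5.44 in flox/flox MZ cells. Wild-type and +/flox arrays overlapped, and both flox/flox arrays lay below them. The difference was -1.98 ± 0.19 (SE; limma adjusted p = 0.0125), 3.95-fold lower (95% interval 2.93 to 5.33). On the 6 FO arrays Tspan15 was at or near the minimum (2.21 to 2.54), which lowers the spread the model uses and can make this p too small. The call was lost without FO flox/flox array 1 or 2 (adjusted p = 0.0537 for either), +/flox array 1 (0.0795) or 2 (0.216), or flox/flox array 1 (0.221) or 2 (0.0643), and was 0.628 with the 6 MZ arrays alone. Adam10, the protease itself, had a difference of -0.24.

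**Figure D2:**
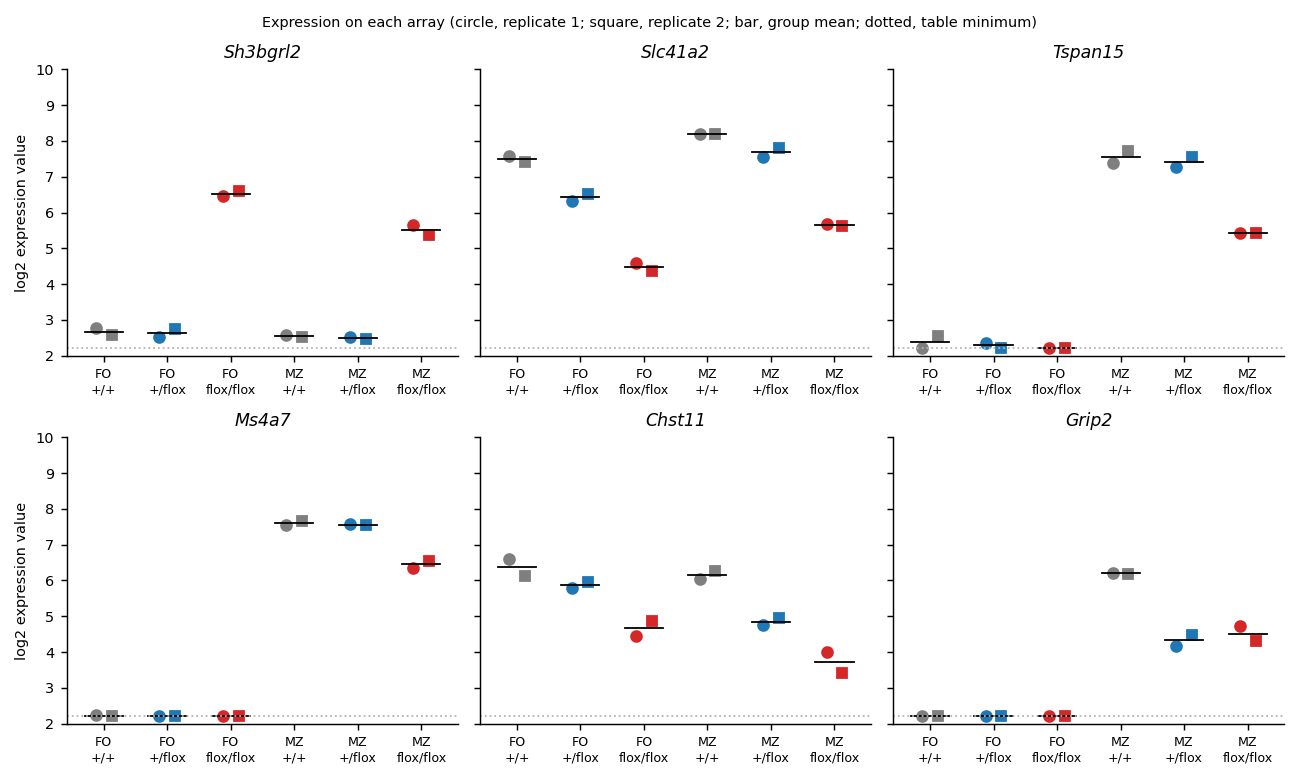
Log2 value of 6 genes on each of the 12 arrays (circle, replicate 1; square, replicate 2; bar, group mean; dotted line, table minimum), by cell type and genotype. Sh3bgrl2 leaves the minimum in flox/flox cells, Slc41a2 descends from 8.19 through 7.68 to 5.65 over the MZ genotypes, Tspan15 and Ms4a7 are lower in MZ flox/flox cells, and Grip2 is lower in both floxed MZ groups.

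The promoters of the 3 genes are shown because a repressor can act through such sequence, and because they can be searched for the sites BCL6 is known to bind. Each is the 250 bases before the RefSeq gene start, in build GRCm38.p6, written 5′ to 3′ along the gene, with CG pairs in capitals. They lie at chr9:83548088-83548337 (plus strand), chr10:83337818-83338067 (minus strand) and chr10:62231219-62231468 (minus strand), in this order.
Sh3bgrl2: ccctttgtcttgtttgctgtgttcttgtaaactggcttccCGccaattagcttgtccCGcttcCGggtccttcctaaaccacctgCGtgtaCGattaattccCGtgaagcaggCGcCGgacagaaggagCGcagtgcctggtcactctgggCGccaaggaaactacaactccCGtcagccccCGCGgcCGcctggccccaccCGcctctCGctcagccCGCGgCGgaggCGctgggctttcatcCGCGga
Slc41a2: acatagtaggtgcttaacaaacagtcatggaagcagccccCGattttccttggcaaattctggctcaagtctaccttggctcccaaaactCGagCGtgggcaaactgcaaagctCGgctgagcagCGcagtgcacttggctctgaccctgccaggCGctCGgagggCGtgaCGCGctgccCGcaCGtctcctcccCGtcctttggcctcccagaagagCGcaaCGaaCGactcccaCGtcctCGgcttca
Tspan15: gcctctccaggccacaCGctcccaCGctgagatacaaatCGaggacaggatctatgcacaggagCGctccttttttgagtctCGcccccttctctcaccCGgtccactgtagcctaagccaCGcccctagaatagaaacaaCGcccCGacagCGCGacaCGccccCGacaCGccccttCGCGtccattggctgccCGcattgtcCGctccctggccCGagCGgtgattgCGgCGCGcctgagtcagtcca
All 3 were rich in G and C, at 62.8%, 59.6% and 63.2%, against a median of 52.4% over 32851 mouse promoters of this length. They held 22, 18 and 23 CG pairs, against a median of 6. The BCL6-type motifs TTCCTAGAA and TTCCTCGAA, and the looser TTCNNNGAA that contains both, were searched on both strands. None of them was in these 3 windows. Of all promoters, 0.347%, 0.0517% and 7.02% held them. Of the 25 genes named by being called or by size, 19 were in the table with 28 promoters, and Lig1 held TTCNNNGAA, as TTCCTTGAA, 174 bases before 1 of its starts.

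Just beyond the threshold lay Ms4a7 and Tmed6, and their adjusted p-values moved across it with the settings. Ms4a7 encodes a tetraspan protein of the CD20 family that is also a macrophage gene. Its values were 7.55 and 7.65 in wild-type, 7.56 and 7.55 in +/flox and 6.36 and 6.53 in flox/flox MZ cells, and it was at the minimum in FO cells. Wild-type and +/flox cells shared 1 level, and both flox/flox arrays were below it, with a difference of -1.11 ± 0.13 (SE; limma adjusted p = 0.0530). Tmed6, a cargo receptor of the early secretory pathway, gave 5.39 and 4.83, then 5.51 and 5.16, then 3.57 and 3.74. Its difference was -1.68 ± 0.21 (limma adjusted p = 0.0708), and it was near the minimum in FO cells (2.22 to 2.57). In both genes such FO values lower the spread the model uses and can make the p too small. The limma adjusted p of Ms4a7 was 0.00490 without a filter, 0.590 for the mean over its probe sets and 0.935 with the 6 MZ arrays alone.

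Beyond these, genes were named by size: the 12 largest differences in each direction with an unadjusted limma p under 0.01, arrays that did not overlap, and a group mean of 6 or more. This rule was met by 46 higher genes (0.494% of those tested) and 32 lower ones (0.344%), while non-overlap alone was met by 1715 (18.4%) and 1895 (20.4%). The 12 higher genes, none past the threshold, were Ahnak, Espl1, E2f8, Kif20a, Vim, Pbk, Dtl, S100a6, Myadm, Lig1, Kntc1 and Sel1l3.

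Ahnak, a giant scaffold protein under the plasma membrane, was 3.91 and 4.55 in +/flox and 8.26 and 7.02 in flox/flox cells. The flox/flox arrays were above the wild-type ones too, which gave 6.73 and 5.17. Its difference of 3.40 ± 0.53 had the largest size of these 12 (limma adjusted p = 0.246). It rests on 1 of 4 probe sets, as the others were at or near the minimum in MZ cells. The mean over all its probe sets differed by 0.86. Vim, the intermediate filament vimentin, was 9.78 and 9.55 against 12.44 and 11.51, a difference of 2.31 ± 0.48 (limma adjusted p = 0.471), with 3 of 3 measured probe sets higher. S100a6, a calcium-binding protein, was 7.07 and 6.07 against 8.94 and 8.43. Its partner family member S100a10, which binds annexin A2 and AHNAK, was 11.16 and 10.82 against 12.14 and 11.72, with 3 of 3 probe sets higher. In each of these genes both flox/flox arrays were above both +/flox arrays, which the rule required of Ahnak, Vim and S100a6. Anxa4, an annexin of membrane repair, went the other way: 8.58 and 8.73 in +/flox cells, 7.64 and 7.72 in flox/flox cells, a difference of -0.97 ± 0.17 (limma adjusted p = 0.337), with 3 of 3 probe sets lower. Emp3, a membrane protein outside the rule by its size, was 8.44 on both +/flox arrays and 10.01 and 9.58 on flox/flox arrays.

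As a list, the memory-type and B1 genes had 13 of 19 tested members higher in flox/flox cells, with a median difference of 0.29 and none called. Differences ran from -1.08 for Pdcd1lg2, which encodes PD-L2, to 3.40 for Ahnak. Of the list's 25 genes on the array, 6 were under 4 on the 4 arrays: Itgam, Itgax, Zbtb32, Tbx21, Nt5e and Bhlhe41. An unadjusted limma p under 0.05 was found for 7 higher and 2 lower members, against 2.76% and 2.68% of all genes tested. The mean level of the list was 7.32 and 7.14 in +/flox and 8.16 and 7.76 in flox/flox cells, and 8.06 and 7.20 in wild-type. The median was 0.13 without flox/flox array 1 and 0.61 without array 2. Flox/flox array 1 and wild-type array 1, the higher array of each pair, were also those with S100a8 above background, at 7.63 and 8.11. The part of that signal in these values was not tested.

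Of the 25 pathway lists, the cell cycle genes had the most uniform direction. All 41 tested cell cycle genes had a higher value in flox/flox than in +/flox MZ cells, with a median difference of 1.49, and none was called. An unadjusted limma p under 0.05 was found for 28, and in 38 the arrays did not overlap. Of all genes tested, 2.76% were higher with such a p and 18.4% were higher without overlap. The mean level was 7.20 and 6.90 in +/flox and 9.11 and 8.05 in flox/flox cells. Wild-type MZ cells spanned both, at 8.59 and 7.08, so flox/flox array 2 was below wild-type array 1, the array with the low 5′ signal. Without flox/flox array 1 the median was 0.93 and 4 members had a p under 0.05, and without array 2 these were 2.11 and 32. The list's genes share these 4 arrays, so they are not independent readings of the genotype.

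Kif20a, a kinesin of cytokinesis, had values of 5.34 and 4.40 in +/flox and 7.91 and 6.56 in flox/flox cells, a difference of 2.36 ± 0.60 (limma adjusted p = 0.649). Kif20a was called with the replicate number as a block within each cell type (limma adjusted p = 0.0254), a fit that called 7 genes in place of 3, with the mitotic genes Kif2c, Nuf2 and Ska1 among them. These last were named after their values were seen, and the labels do not say that the numbers pair the samples. With 1 block over both cell types Kif20a had an adjusted p of 0.283. Plk1, a mitotic kinase, was 4.08 and 3.52 against 6.20 and 4.69. Ccne2, the cyclin E2 of S phase entry, was 4.12 and 4.33 against 5.33 and 5.75, and here flox/flox array 2 was the higher. E2f1, a transcription factor of the same step, was 5.53 and 5.39 against 5.89 and 5.93. Of the genes named by size, the separase Espl1 gave 4.19 and 3.75 against 7.60 and 6.02, and the DNA ligase Lig1 gave 7.49 and 7.33 against 9.86 and 8.50. Espl1, Kif20a and Pbk, a mitotic kinase, were near the minimum on all 6 FO arrays (2.21 to 2.49).

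Among D-type cyclins and G1 inhibitors, Ccnd2 led. Ccnd2 encodes cyclin D2, the D-type cyclin that B cells use on activation, and is a known target of BCL6 repression. Its values were 9.54 and 9.55 in +/flox and 11.18 and 11.05 in flox/flox cells, after 10.56 and 9.93 in wild-type. Both flox/flox arrays were above the other 4, and both +/flox arrays below them. The difference was 1.57 ± 0.28 (SE; limma adjusted p = 0.337), and 6 of 6 measured probe sets were higher. The list as a whole, Ccnd2 included, was split, with 6 of 12 tested members higher and a median of 0.01, which was 0.22 without +/flox array 1 and -0.08 without flox/flox array 1.

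Hmgb2, Sox4 and Myb, listed as markers of transitional B cells and in part active in dividing cells, were higher on the same arrays as the cell cycle genes. Of 6 tested transitional markers 5 had a higher value in flox/flox cells, with a median of 1.02. Hmgb2 was 11.78 and 11.50 against 12.97 and 12.41. Rag1, Rag2, Dntt and Igll1, also on this list, were under 4 on the 4 arrays. Cd93, which encodes the AA4.1 antigen that the gate excluded, was 2.45 and 2.33 against 4.23 and 2.50. Cd24a, the tested member with a lower value, was 14.74 and 14.62 against 14.57 and 14.58. The part of such cells in the values was not tested.

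Immediate early genes, which any handling or stimulus of a B cell can induce, separated the arrays more than the genotypes. Of 27 tested members 24 had a higher value in flox/flox cells, with a median difference of 1.68 and none called. An unadjusted limma p under 0.05 was found for 3, all higher, against 2.76% of all genes tested. The list's mean level was 7.94 and 9.42 in +/flox, 11.28 and 9.63 in flox/flox and 11.30 and 9.84 in wild-type MZ cells. +/flox array 1 was low and flox/flox array 1 high, while both second arrays were close. The median was 0.85 without +/flox array 1, 0.58 without flox/flox array 1 and 2.54 without flox/flox array 2. Klf4, a zinc finger factor of quiescence, followed this order, at 7.21 and 10.38 against 13.37 and 11.34. Ier2 was 8.63 and 9.89 against 10.97 and 10.49, and Dusp5, a phosphatase that shuts off ERK, 7.34 and 7.76 against 9.89 and 8.75. Klf2, which keeps B cells in circulation and is not a member of this list, was 9.07 and 10.26 against 12.99 and 10.60.

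**Figure D3:**
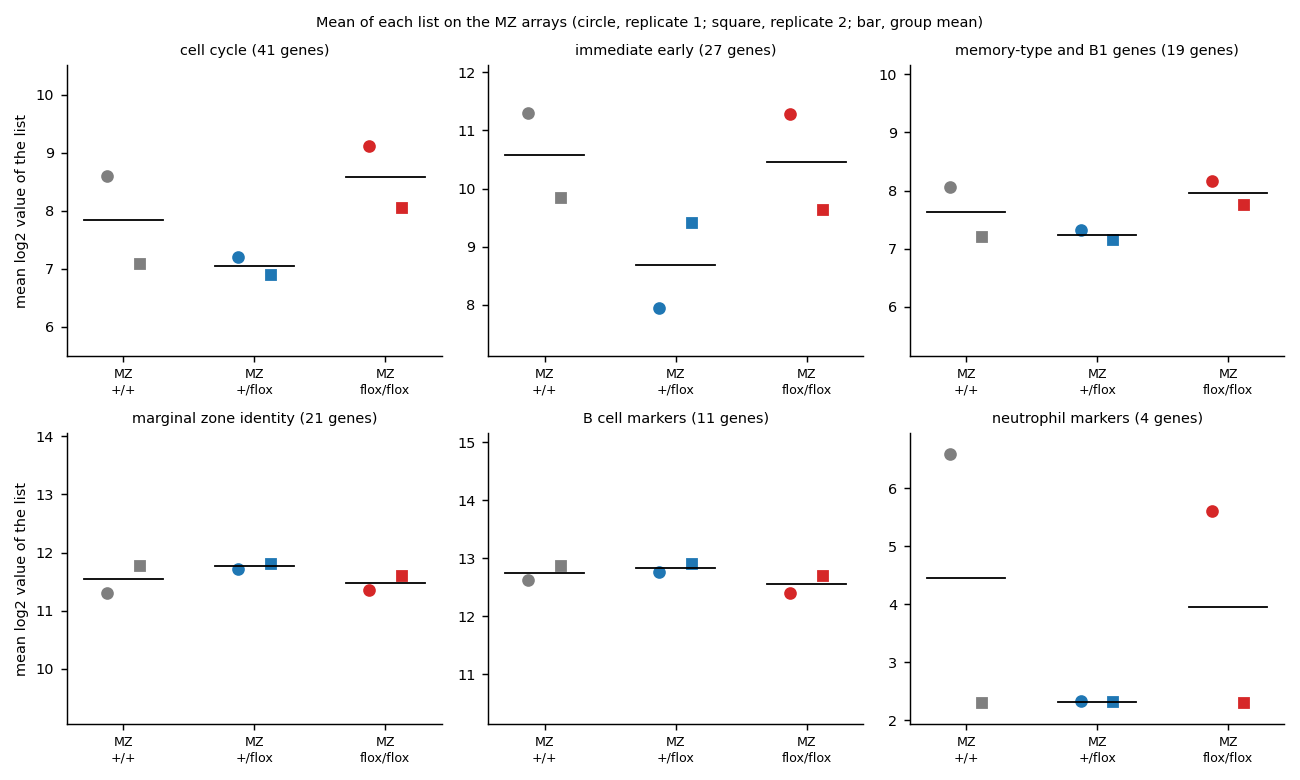
Mean log2 value of 6 gene lists on each MZ array (circle, replicate 1; square, replicate 2; bar, group mean). Cell cycle genes are higher on both flox/flox arrays (9.11 and 8.05) than on the +/flox arrays (7.20 and 6.90), immediate early genes are lowest on +/flox array 1, and the neutrophil genes are above background on wild-type and flox/flox array 1 alone.

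Known targets of BCL6 repression had no common direction. Of 31 tested, 19 had a higher and 12 a lower value in flox/flox cells, with a median of 0.18 and none called. An unadjusted limma p under 0.05 was found for 2 higher and 1 lower, against 2.76% and 2.68% of all genes tested. Without +/flox array 1, 15 were higher and 16 lower, with a median of -0.010, and without +/flox array 2, 23 and 8, with 0.33. The 2 higher with such a p were Ccnd2 and Il18. Il18, a cytokine that drives interferon-gamma responses, was 9.25 on the higher +/flox array, with a +/flox mean of 9.12 ± 0.17 (SD, n = 2), and 9.97 and 10.11 in flox/flox cells, after 8.90 and 8.67 in wild-type. The +/flox arrays were above the wild-type ones and the flox/flox arrays above both, with a second step of 0.92 ± 0.18 (SE; limma adjusted p = 0.457). Prdm1, the plasma cell regulator that BCL6 represses in germinal centres, was 6.21 and 6.64 in +/flox and 5.75 and 5.84 in flox/flox cells, lower rather than higher, at -0.62 ± 0.37 (limma adjusted p = 0.901). Cd80, a costimulatory ligand, was 5.10 and 5.16 against 4.44 and 4.96.

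The corepressors and partners of BCL6 had 18 of 26 tested members higher, with a median of 0.05, and Ezh2, the histone methyltransferase that is also high in dividing cells, was at 8.61 and 8.62 against 10.05 and 9.19. Plasma cell genes had 7 of 15 higher, with a median of -0.13. Besides Prdm1, Slamf7 was lower, at 7.58 and 7.20 against 6.81 and 6.87. Fkbp11 went the other way, with the largest difference of this list in either direction, 1.09, and arrays that did not overlap. Sdc1 and Irf4 were higher by 0.83 and 0.72, with overlapping arrays. Of the 15 plasma cell genes, 2 had both flox/flox arrays above both +/flox arrays and 6 had both below. Germinal centre genes had 9 of 14 tested members higher, with a median of 0.10, and 8 of the list's 21 genes on the array were under 4 on the 4 arrays, S1pr2 and Rgs13 among them. Without +/flox array 1 the plasma cell median was 0.012 and the germinal centre median -0.013, and without +/flox array 2 the corepressor median was 0.14.

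Genes of MZ identity leaned lower. Of 21 tested members 15 had a lower value in flox/flox cells, with a median of -0.22, and none was called. Rundc3b, an MZ-enriched gene, was 8.75 and 8.38 in +/flox and 7.80 and 7.55 in flox/flox cells, a difference of -0.88 ± 0.23 (limma adjusted p = 0.649). Notch2, the receptor on which MZ cells depend, was 12.53 and 12.68 against 12.06 and 12.31, and Tm6sf1 was 13.62 and 13.94 against 12.91 and 13.51. Hes5, a target of NOTCH signalling, was 8.92 and 8.07 against 7.03 and 7.79. These 4 genes have the smallest p of the list, so that their arrays did not overlap follows in part from the choice. Of the 21 members, 9 had both flox/flox arrays below both +/flox arrays and 1 had both above. The shares over all genes tested were 20.4% and 18.4%. Without flox/flox array 1 the list's median was -0.09, and without array 2 it was -0.41. The 11 B cell markers, Pax5 and Ms4a1 among them, were all lower too, by a median of -0.23, and Pax5 gave 7.98 and 8.38 against 6.22 and 7.96. The Notch2 pathway had 15 of 20 members lower, with a median of -0.10, which was -0.02 without +/flox array 2, and Notch1 was higher, at 8.45 and 8.77 against 9.12 and 9.04.

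Follicular identity genes showed no common direction, with 6 of 15 higher and a median of -0.07. Differences ran from -1.19 for Cxcr5 to 2.14 for Klf2, whose values are given above. Itgb7, an integrin subunit of gut homing, was 5.72 and 6.82 in +/flox and 7.50 and 7.27 in flox/flox cells. The homing and adhesion genes were split likewise, 13 of 28 higher, with a median of -0.10. Selplg, the ligand of P-selectin, was 7.95 and 7.57 against 8.17 and 8.61. Without flox/flox array 1 these medians were -0.17 and -0.01.

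Genes for sensing and for display to T cells leaned lower. MHC class II presentation had 15 of 20 tested members lower, with a median of -0.13. H2-Eb2, a class II beta chain, was 9.87 and 9.79 in +/flox and 8.79 and 9.21 in flox/flox cells, with wild-type at 9.93 and 9.92, and a difference of -0.83 ± 0.20 (SE; limma adjusted p = 0.595). H2-Ob, a subunit of the peptide-loading modulator H2-O, was 13.85 and 13.90 against 13.25 and 13.46. Other class II genes moved little: differences were -0.11 for H2-Aa, -0.01 for H2-Ab1, -0.10 for H2-Eb1, -0.006 for Cd74 and 0.13 for Ciita. Costimulation and checkpoint genes had 12 of 14 lower, with a median of -0.28, and Pdcd1lg2, the PD-1 ligand PD-L2, was 7.45 on both +/flox arrays against 5.65 and 7.08. Toll-like receptor genes had 16 of 20 lower, with a median of -0.30, and Cd180, a receptor that tunes Toll-like responses in B cells, was 9.30 and 9.21 against 8.82 and 8.96. Without flox/flox array 1 these medians were -0.06, -0.11 and -0.08, and no member of the 3 lists was called. The MHC class II median was -0.27 without +/flox array 1 and -0.03 without +/flox array 2.

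B cell receptor signalling had 19 of 27 tested genes lower, with a median of -0.08, and Nfatc1, a calcium-dependent transcription factor, was 11.70 and 11.86 against 11.36 and 11.46. The receptors and factors of NF-kB, CD40 and BAFF had 15 of 23 lower, with a median of -0.03, and Traf1 was 9.79 and 9.29 against 8.72 and 8.42. In the apoptosis regulators 12 of 16 were lower, with a median of -0.07, and the death receptor Fas was 6.32 and 6.75 against 5.76 and 6.05. Glycolysis genes had 18 of 21 higher, with a median of 0.30, and Hk2, a first-step hexokinase, was 6.95 and 7.06 against 8.61 and 7.36. Type I interferon genes were even, at 18 of 34 higher, and the ribosomal protein genes, 15 of 18 higher, had a median of 0.06. Several of these counts turned on 1 array. Without +/flox array 2 the NF-kB, CD40 and BAFF list had 15 of 23 higher, with a median of 0.12, and the apoptosis regulators 10 of 16, with 0.042. Without +/flox array 1 their medians were -0.20 and -0.22, the B cell receptor median was -0.15, and 14 of 34 interferon genes were higher. The glycolysis median was 0.17 without +/flox array 2 or flox/flox array 1.

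**Figure D4:**
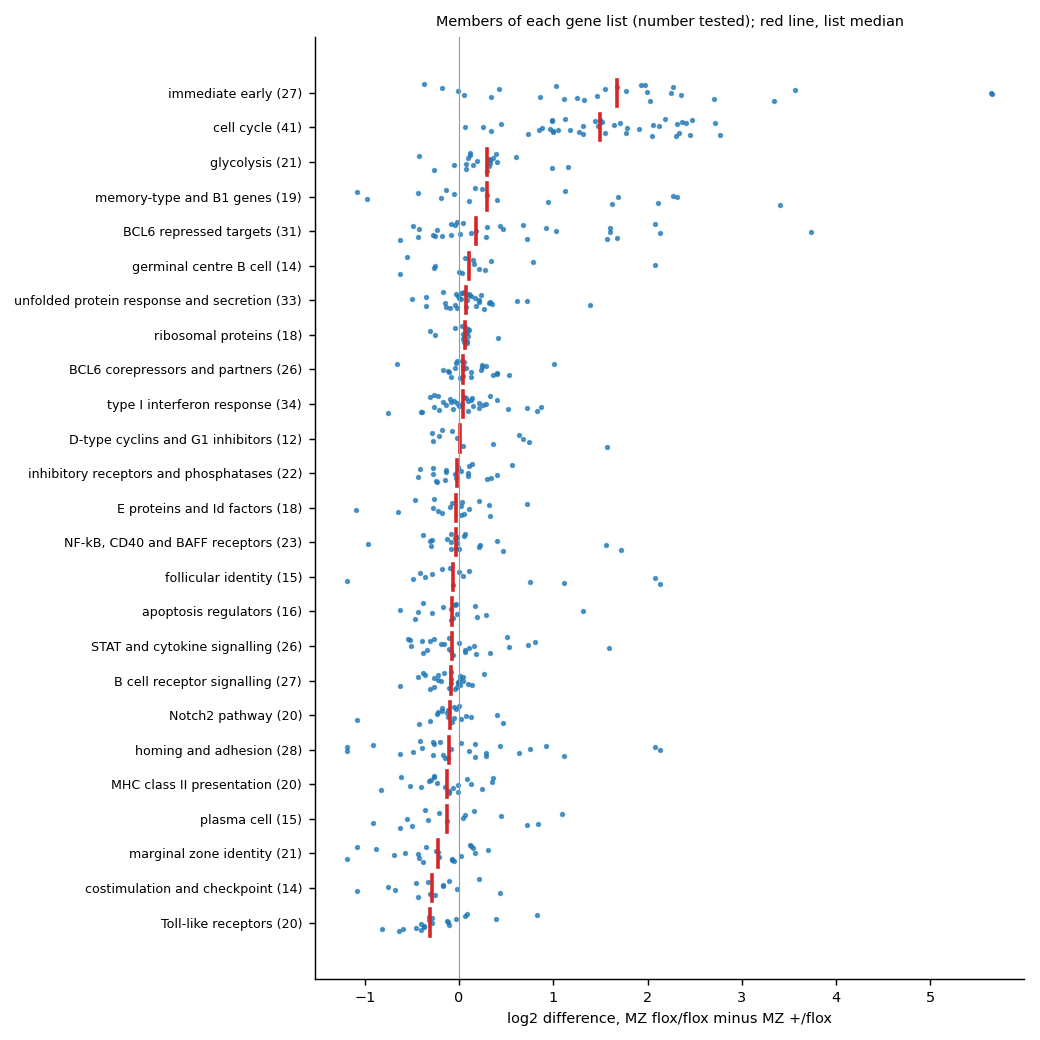
Log2 difference, MZ flox/flox minus MZ +/flox, of every tested member of the 25 gene lists (dots), ordered by the list median (red line). Immediate early (median 1.68) and cell cycle genes (1.49) lie to the right, and the other medians lie between -0.30 and 0.30; no member was called.

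The lower genes named by size were Slc41a2, Tspan15, Aldh6a1, Ppl, Cdc42ep3, Ms4a7, A930024E05Rik, Zfp532, Anxa4, Rufy3, AI504432 and Srgap3. Aldh6a1, a mitochondrial enzyme of valine breakdown, was 7.33 and 7.37 in +/flox and 6.15 and 6.24 in flox/flox cells, a difference of -1.15 ± 0.23 (limma adjusted p = 0.457). Ppl, the cytolinker periplakin, was 7.13 and 7.68 against 6.42 and 6.10. In both genes the wild-type arrays lay with the +/flox ones: they gave 7.15 and 7.08 for Aldh6a1, and 7.18 and 7.28 for Ppl. Ppl, like Ms4a7 and Zfp532, was at or near the minimum on all FO arrays.

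The order of the 3 genotypes differed between the genes. The +/flox mean lay between the wild-type and flox/flox means, as in Slc41a2, in 2 of the 12 higher and 3 of the 12 lower genes named by size. In the other 10 and 9 the wild-type mean lay between those of the floxed groups. These wild-type means include array 1, which read E2f8 at 7.48, Pbk at 7.12 and Espl1 at 6.63, against 5.02, 4.77 and 4.55 on array 2. With wild-type array 2 alone, a choice made after seeing the data, the +/flox mean lay between in 4 of the 12 higher and 4 of the 12 lower genes. Chst11, a chondroitin sulfotransferase, had lower means at both steps, with means of 6.16, 4.85 and 3.71 and a second step of -1.14 ± 0.26 (limma adjusted p = 0.579). Grip2, a scaffold protein, had a lower mean after the first step, 4.32 against 6.19, and was 4.52 in flox/flox cells, a second step of 0.19 ± 0.18 that became -0.0235 without flox/flox array 1. Cd83, an activation marker, had a second step of -0.26 and Gsn, the actin-severing gelsolin, one of -0.72. The flox/flox minus +/flox and +/flox minus wild-type differences share the +/flox arrays.

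The same allele step was measured in FO cells, on 4 other arrays of mice of the same genotypes. In FO cells 7 genes passed the threshold (0.0752% of those tested), 6 higher (0.0645%) and 1 lower (0.0107%): Pik3r6, Sh3bgrl2, Slc41a2, Enkur, Il18, Dctd and Adgrl2. Sh3bgrl2 and Slc41a2 were called in both cell types, which is 66.7% of the 3 MZ calls and 28.6% of the 7 FO calls. The FO count was 2 without FO flox/flox array 2, 3 without FO +/flox array 2 or either MZ +/flox array, and 4 without FO +/flox array 1 or FO flox/flox array 1. Whether FO and MZ cells were taken from the same mice is not stated. Sh3bgrl2 rose by 3.88 in FO cells, from 2.54 and 2.76 to 6.46 and 6.59, and Slc41a2 fell by 1.95, from 6.33 and 6.52 to 4.58 and 4.38. All 3 MZ calls had the same sign in FO cells and all 7 FO calls the same sign in MZ cells, with Sh3bgrl2 and Slc41a2 in both counts. Tspan15 in FO cells and Pik3r6 in MZ cells lay at or near the minimum, so their signs there carry little information. The share of same signs over all genes tested was not counted, so these counts have no background. Il18 had differences of 1.52 in FO and 0.92 in MZ cells, Adgrl2, an adhesion receptor, 3.49 and 1.87, and Ccnd2, not called in either, 1.39 and 1.57.

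The test of the difference between the cell types found 1 gene, 0.0107% of those tested, and 198 genes (2.13%) had an unadjusted limma p under 0.05 for it. Pik3r6, a regulatory subunit of the class IB phosphoinositide 3-kinase, was at the minimum in +/flox cells of both types. In flox/flox FO cells it reached 6.71 and 6.36, and in flox/flox MZ cells it was 2.56 and 2.23. The MZ step minus the FO step was -4.15 ± 0.24 (SE; limma adjusted p = 6.92e-04). The FO step of 4.32 was called, and the MZ step was 0.17 ± 0.17 (limma adjusted p = 0.931). Pik3r6 passed the filter through FO arrays alone, since all MZ arrays lay near the minimum. Its values at the minimum lower the spread the model uses. They can make the p of the FO step and of the difference too small. Tspan15, with steps of -1.98 in MZ and -0.08 in FO cells, did not pass this test (difference -1.90, limma adjusted p = 0.359), and neither did Ms4a7 (-1.11, limma adjusted p = 0.533). A further gene joined Pik3r6, for 2 in all, without FO +/flox array 1 (Ackr3) or without MZ wild-type array 1 or 2 (Car2).

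Of the 12 higher genes named by size in MZ cells 11 had a higher value in FO flox/flox cells too. Of the 12 lower genes 8 had the same sign in FO cells. Both FO groups were under 4, near background, in 6 of the 12 higher genes and in 5 of the 12 lower ones, whatever their sign. Ahnak had a step of 1.55 in FO cells, from 10.80 and 10.84 to 12.45 and 12.30, and S100a6 one of 1.71. Vim and Emp3, already above 11 in FO cells, had steps of 0.42 and 0.11 there. Ackr3, a scavenging chemokine receptor, was 12.28 and 12.51 in +/flox and 13.31 on both flox/flox MZ arrays, while in FO cells it was 7.15 and 2.94 against 12.15 and 11.14. The test of the difference did not pass for these 5 genes.

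**Figure D5:**
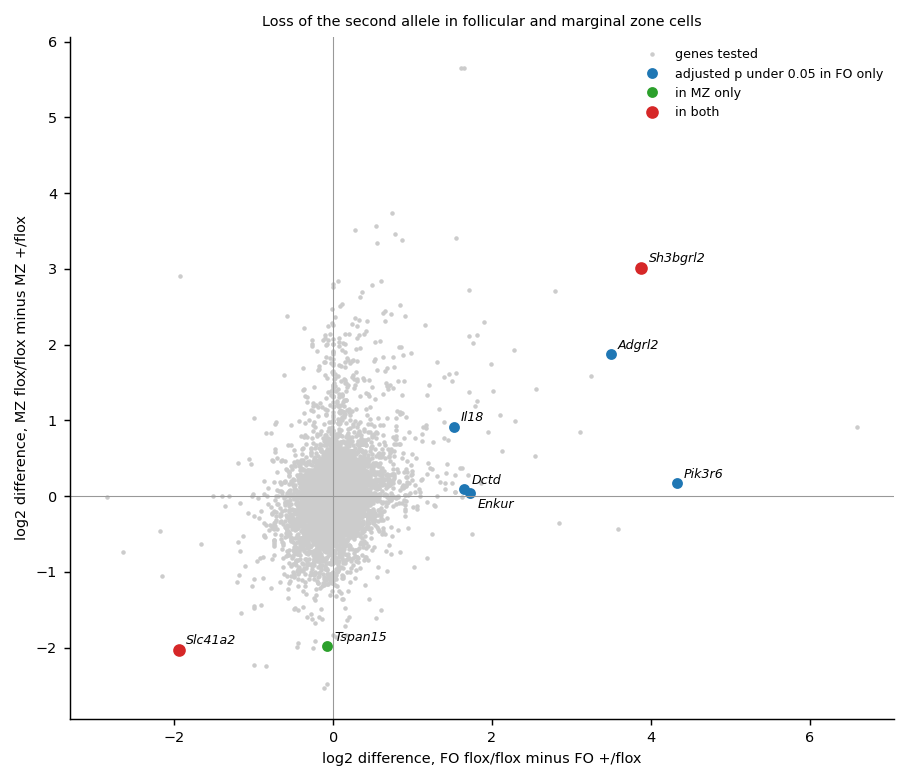
Log2 difference of each gene tested for the flox/flox minus +/flox step in FO cells (horizontal) and in MZ cells (vertical), with genes past an adjusted p of 0.05 coloured. Sh3bgrl2 (3.88 and 3.02) and Slc41a2 (-1.95 and -2.03) are called in both, Tspan15 in MZ cells, and Pik3r6 lies at 4.32 and 0.17.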

How the data were processed

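The deposited log2 values per probe set came from GCRMA, per the submitters' processing notes, which give no version. This method collects low signals at a minimum, which was 2.21262 on the FO and 2.21924 on the MZ arrays. Levels set across the cell types may therefore reflect separate normalization runs.

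Of 45101 probe sets, 34958 had 1 gene symbol in the platform annotation, 932 had several and 9211 none, including 64 controls. For each gene the probe set brightest on average over the 12 arrays was used. Tests were made with limma 3.58.1 in R 4.3.3 on 6 group means with 6 residual degrees of freedom, two-sided, with Benjamini-Hochberg adjustment over the genes tested. Precision is limited by the number of arrays. Values are mean ± SD (n = 2), and differences carry their SE. The model was tested on simulated data.

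Named genes were Bcl6, the called genes, the 12 largest differences in each direction under the stated rule, up to 4 members of each list by p, markers of the sort, and genes that an earlier account of these data named. Emp3, Tmed6, Lpp, Fam43a, Rfc4, St6gal1 and Adam10 were chosen after their values were seen. The comparison, its members and the 35 gene lists were chosen with earlier results of these data known. Lists are described by counts and medians, without a test. Alternatives covered the filter, probe set rule, arrays in the model, variance moderation, array weights, scaling, a floor, replicate numbers and each array left out. Promoters were taken from RefSeq.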

Additional observations from a re-analysis of the deposited data

Results flagged for a closer look

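The step from +/flox to flox/flox differed between MZ and FO cells for Pik3r6, by a limma test of that difference over all genes. The MZ step minus the FO step was -4.15 ± 0.24 (SE; limma adjusted p = 6.92e-04). Pik3r6 was higher on 2 of 2 flox/flox FO arrays than on all other FO arrays, and it lay within 0.5 of the minimum on all MZ arrays. The FO and MZ +/flox arrays lie at the minimum, where the spread is near 0 and the p can be too small. The gene passed the filter through FO arrays alone.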

How the results depend on the processing

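The 3 MZ calls (Sh3bgrl2, Slc41a2 and Tspan15) were kept with the stricter filter, the mean over probe sets, trend and robust moderation, median centring and the floor. Without a filter 9 genes passed, with array weights 5 and with quantile normalization 5, the latter pair adding Ms4a7 and Tmed6. Models of the 6 MZ arrays alone, with or without the filter applied again, and of the 4 arrays alone called 0 genes, with 334, 341 and 498 at an unadjusted limma p under 0.05. Leaving out 1 array gave 1 to 4 MZ calls, and Sh3bgrl2 alone remained without +/flox array 2, flox/flox array 1 or flox/flox array 2. Replicate numbers are shared by the groups, but same-numbered MZ +/flox and flox/flox arrays did not deviate together (correlation 0.036 over genes). Over the 15 pairs of groups this ran from -0.26 to 0.77, highest for FO +/flox with FO flox/flox, and was 0.68 for FO with MZ flox/flox. With the number as a replicate block 3 genes were called, and with a block within each cell type 7, adding Kif20a, Kif2c, Nuf2 and Ska1, mitotic genes named after their values were seen. The difference between MZ and FO steps had 1 call, 5 without a filter, and 1 to 2 with 1 array left out, where Ackr3 joined Pik3r6 without FO +/flox array 1 and Car2 without either MZ wild-type array. For FO cells, with alternatives chosen after seeing the data, the 7 calls became 4 with trend and robust moderation, 10 with quantile normalization, 7 without a filter, of which Pik3r6, Sh3bgrl2 and Slc41a2 were shared, and 2 to 5 with 1 array left out, fewest without FO flox/flox array 2. Grip2 had a difference of -0.0235 without flox/flox array 1 and 0.41 without array 2. Where not built into the setting, the cause of these shifts was not tested. Values near the minimum limit what can be said of low genes, and all groups had 2 arrays.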

Other observations

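Gene groups not described above gave small differences between flox/flox and +/flox MZ cells, and none of their members was called. Of 18 tested genes of the E protein and Id families 9 had a higher value, with a median of -0.03, or -0.19 without +/flox array 1. Pou2af1, a B cell coactivator with the smallest p of this list, gave 13.94 and 14.08 in +/flox and 13.36 and 13.72 in flox/flox cells. STAT and cytokine signalling had 15 of 26 lower, with a median of -0.08, which turned on the +/flox arrays: it was -0.34 without array 1 and 0.13, with 17 of 26 higher, without array 2. Socs2, an inhibitor of cytokine receptor signalling, was 4.41 and 3.80 against 6.74 and 4.65, and its step in FO cells was 3.24. Inhibitory receptors and phosphatases had 13 of 22 lower, with a median of -0.02, which was -0.21, with 17 lower, without +/flox array 1 and 0.17, with 14 higher, without +/flox array 2. Genes of the unfolded protein response and secretion had 21 of 33 higher, with a median of 0.08, or 0.02 without flox/flox array 1, and Manf, a chaperone-like factor of the endoplasmic reticulum, was 11.46 and 11.43 against 11.79 and 11.76.

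Among the genes with the 20 smallest p-values, Dicer1, the nuclease that matures microRNAs, was 8.54 and 8.80 in +/flox and 9.64 and 9.39 in flox/flox MZ cells (limma adjusted p = 0.457). Plxna1, a semaphorin receptor, was 3.11 and 3.37 against 4.37 and 4.89, with a step of 1.39 in MZ and 2.01 in FO cells. Pde4dip, a centrosome and Golgi anchor, was 8.68 and 8.63 against 7.86 and 7.96. Ssbp2 was 3.78 and 4.42 against 5.22 and 5.56. In each of these the groups did not overlap, which follows in part from their choice by p. Over all genes tested 18.4% did not overlap with higher and 20.4% with lower values.

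Markers of other cells were summed as linear values over each list and are given as log2 sums. Macrophage and dendritic cell markers were 9.42 and 8.74 in +/flox cells, with both flox/flox arrays between these, plasma cell markers 12.46 and 12.32 against 11.94 and 11.98, and neutrophil markers 5.83 on both +/flox arrays against 8.63 and 5.82. T cell markers were 5.92 and 6.31 against 5.92 on both, NK cell markers 6.32 and 6.89 against 6.15 and 6.25, and erythroid markers 9.96 and 10.37 against 10.72 and 10.62. Platelet markers were 5.11 and 5.10 in both groups, and stromal and endothelial markers 8.59 and 9.36 against 8.87 and 9.24. The erythroid sum was carried by Tfrc, a transferrin receptor that B cells also express, since the other 10 markers were under 4 on the 4 arrays. Likewise only Lat of the T cell, Prf1 of the NK cell and Pecam1 of the stromal and endothelial markers reached 4 on any of them. All 7 platelet markers were under 4, and Xbp1 and Ell2 were the highest plasma cell markers. The part of other cells in these sums was not tested.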
